A study of Mus musculus with 8 samples.

Results

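Proliferating macrophages are the macrophage nuclei of visceral white adipose tissue that carried transcripts of several genes used by dividing cells. They were chosen by reading counts of unique molecular identifiers (UMIs, one per captured RNA molecule) in each nucleus. Barcodes were kept that had 1000 or more UMIs and 300 or more genes, with mitochondrial UMIs making up no more than 5%. A barcode was called a macrophage when at least 3 of 7 macrophage genes were detected (Adgre1, Csf1r, Mertk, Mrc1, Ctss, Lyz2, Cd68) and when the summed UMIs of Adgre1, Csf1r and Mertk exceeded those of 3 adipocyte genes (Plin1, Plin4, Cidec), of 3 progenitor genes (Pdgfra, Dcn, Col3a1) and of 3 endothelial genes (Flt1, Ptprb, Cyyr1). It was called proliferating when at least 3 of 6 cycling genes (Mki67, Top2a, Cenpe, Cenpf, Dtl, Hells) were also detected. This gave 573 proliferating nuclei among 21235 macrophages and 77987 kept barcodes.

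Nuclei came from snap-frozen visceral fat of 8 mice, 2 per group, with 1 library of 10x Genomics 3′ single-nucleus RNA sequencing per mouse. By the sample labels, all mice carried 1 modified allele of p21 (Cdkn1a, a cyclin-dependent kinase inhibitor induced by p53). The series' own design text instead speaks of SVF and of p21+/- mice; the sample labels are followed here. The genotype was p21+/mCherry on standard diet (rep144 and rep146), p21+/mCherry on high-fat diet (rep128 and rep129), p21+/mCherry-Tert on high-fat diet (rep134 and rep136) and p21+/mCherry-TertCi on high-fat diet (rep138 and rep140). Tert is the reverse transcriptase of telomerase; the labels do not spell out TertCi. No Tert or TertCi mouse received standard diet, so the diet can be compared within the mCherry genotype only. The labels give no age or sex, and record that tissue was processed in pairs without saying which mice shared a pair.

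Tissue macrophages can renew themselves by division in place, independently of monocytes arriving from the blood, and local division contributes to the accumulation of macrophages in obese fat. A dividing cell first licenses and copies its DNA in S phase, using the MCM helicase, DNA polymerases and enzymes of nucleotide supply. It then builds kinetochores and a spindle for mitosis. Transcription of the S-phase genes is driven by E2F factors and that of the mitotic genes largely by the MuvB complex with B-Myb and FoxM1 acting at CHR elements, with NF-Y at CCAAT boxes. In resting cells MuvB is part of the DREAM complex, which represses these genes.

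Promoters of 4 genes that were higher in the proliferating nuclei are printed because these elements can be read in them. Each is the 250 bases before the RefSeq transcription start in build GRCm38.p6, 5′ to 3′ on the gene's strand. Capitals mark any match, on either strand, to CHR (TTTGAA), the CCAAT box (CCAAT) or an E2F pattern (TTTNNCGC, where N is any base). Overlapping matches run together. Kif11 and Kif15 encode mitotic kinesins that push spindle poles apart, Mcm6 a subunit of the replicative helicase and Pola1 the catalytic subunit of DNA polymerase alpha.
Kif11 (chr19:37376132-37376381, plus strand): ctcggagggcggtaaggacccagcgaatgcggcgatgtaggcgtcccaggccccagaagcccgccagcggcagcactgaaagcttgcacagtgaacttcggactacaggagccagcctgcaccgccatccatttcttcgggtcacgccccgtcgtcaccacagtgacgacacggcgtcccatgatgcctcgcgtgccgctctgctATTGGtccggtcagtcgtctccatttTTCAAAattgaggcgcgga
Kif15 (chr9:122950831-122951080, plus strand): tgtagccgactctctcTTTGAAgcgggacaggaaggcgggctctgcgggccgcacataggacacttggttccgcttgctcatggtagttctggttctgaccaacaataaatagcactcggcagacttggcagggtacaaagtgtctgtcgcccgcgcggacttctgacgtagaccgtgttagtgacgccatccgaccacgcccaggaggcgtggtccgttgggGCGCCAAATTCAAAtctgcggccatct
Mcm6 (chr1:128359706-128359955, minus strand): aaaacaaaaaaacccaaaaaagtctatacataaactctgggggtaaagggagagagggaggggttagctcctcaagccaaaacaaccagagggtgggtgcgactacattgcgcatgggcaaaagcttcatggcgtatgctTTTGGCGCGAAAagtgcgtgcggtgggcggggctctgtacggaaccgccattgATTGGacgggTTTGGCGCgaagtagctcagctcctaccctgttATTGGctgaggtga
Pola1 (chrX:93632156-93632405, minus strand): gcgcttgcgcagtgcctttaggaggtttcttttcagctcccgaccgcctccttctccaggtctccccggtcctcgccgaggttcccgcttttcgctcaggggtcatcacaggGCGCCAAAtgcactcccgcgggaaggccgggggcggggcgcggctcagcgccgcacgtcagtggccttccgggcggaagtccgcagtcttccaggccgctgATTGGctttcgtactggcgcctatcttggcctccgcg

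In both kinesin promoters a CHR match began 19 bases before the start. The Kif11 window also held a CCAAT match at 45 bases, and the Kif15 window a CHR match at 234 bases and an E2F match at 27 bases. The Mcm6 window held no CHR match, E2F matches at 110, 106 and 47 bases and CCAAT matches at 57 and 14 bases. The Pola1 window held an E2F match farther upstream and a CCAAT match at 37 bases. Among 32851 promoter windows of this length, 15.99% held CHR, 33.85% held CCAAT and 4.28% held the E2F pattern. The windows counted do not cover every chromosome, so a gene can be unmatched for that reason as well as by its symbol. Of 78 condensin, centromere and spindle genes higher in proliferating nuclei, 66 were matched by symbol and gave 73 windows, of which 31.51% held CHR, 58.9% CCAAT and 16.44% E2F. Of 44 licensing, polymerase and nucleotide genes that were higher, 37 were matched and gave 42 windows, with 14.29% for CHR, 47.62% for CCAAT and 19.05% for E2F. The 12 perivascular macrophage genes that were lower gave 14 windows from 10 matched genes, with 7.143%, 28.57% and 7.143%. A match describes letters and does not show that a factor was bound.

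The libraries held 23378488 to 139749876 UMIs and 3233 to 21996 kept barcodes. rep128 of the mCherry high-fat group was the deepest and stood apart: it supplied 452 of the 573 proliferating nuclei (78.9%) and 11186 of the 21235 macrophages. Of the kept barcodes, at most 96 occurred in both of any pair of libraries, or 0.699% of the smaller one. Several results that rest on rep128 are given with and without it, and others are not.

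How often macrophages were proliferating differed between mice. The share was 0 of 474 macrophages in mCherry standard-diet rep144, which allows up to 0.633% by 3 counts of the total (exact upper limit 0.775%), and 3 of 764 (0.393%; exact 95% Clopper-Pearson interval 0.0811 to 1.14%) in rep146. It was 452 of 11186 (4.04%; 3.68 to 4.42%) and 36 of 1464 (2.46%; 1.73 to 3.39%) in the 2 mCherry high-fat libraries. In the Tert mice it was 58 of 3772 (1.54%; 1.17 to 1.98%) in rep134 and 0 of 350 in rep136, which allows up to 0.857% by the same measure (exact upper limit 1.05%). In the TertCi mice it was 16 of 2300 (0.696%; 0.398 to 1.13%) and 8 of 925 (0.865%; 0.374 to 1.70%). Among all macrophages with this gate, both mCherry high-fat mice lay above the other 6 mice. This order did not hold in every setting. Among barcodes reaching each library's own UMI threshold, mCherry rep129 stood at 3.23% and Tert rep134 at 3.57%. Among nuclei with no UMI of the 9 genes of other lineages, rep129 stood at 1.348% and rep134 at 1.481%. The intervals of rep129 and rep134 overlapped in both settings, and rep128 stayed highest. Intervals and limits cover counting error only. Over all macrophages, the group means were 0.196% ± 0.278 (SD, n = 2), 3.25% ± 1.12, 0.769% ± 1.09 and 0.780% ± 0.120 for standard-diet mCherry, high-fat mCherry, Tert and TertCi.

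With at least 3 of the 6 genes, differences in this share between groups did not pass a test. Over the 4 groups, the exact permutation test on log odds gave F = 2.52 and p = 0.238 (smallest possible 0.00952). The 6 high-fat libraries of all 3 genotypes exceeded the 2 standard-diet mCherry libraries by 2.30 on the log2 odds scale, a contrast that mixes diet with genotype (two-sided exact permutation p = 0.143, smallest possible 0.0357). The mCherry high-fat libraries exceeded the Tert and TertCi libraries by 2.40 (two-sided exact permutation p = 0.133, smallest possible 0.0667, which cannot reach 0.05). These are 3 related tests, and none passed without adjustment. Other gates changed the call of the 4-group test, which gave F = 7.07 (exact permutation p = 0.0381) with at least 4 of the 6 genes and F = 8.11 (exact permutation p = 0.0286) with at least 2, where the high-fat libraries exceeded the standard-diet ones by 2.53 (exact permutation p = 0.0357). Without rep144, which had no proliferating nucleus, the high-fat difference was 1.24 (exact permutation p = 0.571, smallest possible 0.143).

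Within libraries, proliferating nuclei held more UMIs than other macrophages. Proliferating nuclei had a median of 8107 UMIs against 3670 in the other macrophages of rep128, 6031.5 against 2413 in rep129, 5229 against 3195 in rep134, and 5357.5 against 2596 in rep138. Barcodes led by adipocyte genes (at least 3 summed UMIs of Plin1, Plin4 and Cidec, and more of these than of each other trio) served as the background from a type not expected to divide. Without correction for depth, 0.300, 0.345, 9.44, 5.43, 2.81, 0, 0.222 and 0.190% of them had at least 3 of the 6 genes in rep144, rep146, rep128, rep129, rep134, rep136, rep138 and rep140. Their median UMIs ran from 2916 to 16867.5, against 1717 to 3757 in macrophages, and in 4 of the 8 libraries their raw share was above that of macrophages.

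Depth was then made equal by thinning. With every nucleus thinned to 4000 UMIs, and shallower nuclei left out, 196 of 5133 macrophages of rep128 qualified (3.82%; exact interval 3.31 to 4.38%) against 0.588% (0.0713 to 2.11%) of adipocyte-led barcodes. The values were 3.61% (1.88 to 6.23%) against 1.32% (0.0333 to 7.11%) in rep129 and 1.82% (1.18 to 2.68%) against 0.392% (0.107 to 1.00%) in rep134. They were 1.13% (0.415 to 2.44%) against 0.0487% (0.00123 to 0.271%) in rep138 and 2.50% (0.519 to 7.13%) against 0% (0 to 0.489%) in rep140. In rep144, rep146 and rep136 only 88, 162 and 31 macrophages were deep enough, with 0, 1 and 0 qualifying. rep128, rep134, rep138 and rep140 had intervals that did not overlap their background, whereas those of rep129 did. Thinning left out 6053, 1132, 2401, 1768 and 805 macrophages of rep128, rep129, rep134, rep138 and rep140, 386 and 602 of the standard-diet replicates and 319 of rep136. Thinned to 2000 UMIs, 0.998% (0.809 to 1.22%) of macrophages against 0.282% (0.00715 to 1.56%) of adipocyte-led barcodes qualified in rep128, and 0.471% (0.258 to 0.789%) against 0.0832% (0.00211 to 0.463%) in rep134. The intervals of macrophages and background overlapped in every library at that depth.

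Tests at equal depth differed with the setting. At 4000 UMIs with at least 3 of 6 genes, the 4 groups gave F = 7.31 (exact permutation p = 0.0476), and the high-fat libraries exceeded the standard-diet libraries by 1.70 on the log2 odds scale (exact permutation p = 0.0357, the smallest possible). These values depend on the 0.5 added to each count, which places rep136, with 0 of 31, at log2 odds of −5.98, above rep146, with 1 of 162, at −6.75. With 0.1 added in place of 0.5, neither passed (F = 2.91, exact permutation p = 0.21; difference 2.64, exact permutation p = 0.0714). Without rep136, F was 5.66 (exact permutation p = 0.105) and the difference 1.82 (exact permutation p = 0.0476, the smallest possible). With at least 2 of 6 genes at 4000 UMIs these gave F = 6.65 (exact permutation p = 0.0762) and 1.86 (exact permutation p = 0.107). At 2000 UMIs with at least 3 of 6 genes they gave F = 4.17 (exact permutation p = 0.133) and 1.28 (exact permutation p = 0.107). The difference between mCherry high-fat libraries and those of Tert and TertCi was 1.11 at 4000 UMIs and 1.31 at 2000 UMIs (both exact permutation p = 0.133), against 2.40 in all macrophages. In rep136, which had no qualifying nucleus at either depth, the log2 odds went from −9.45 with 0 of 350 to −5.98 with 0 of 31, as fewer nuclei stood behind the 0. Without rep136 the differences were 1.69 in all macrophages, 1.04 at 4000 UMIs and 1.27 at 2000 UMIs.

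**Figure D1:**
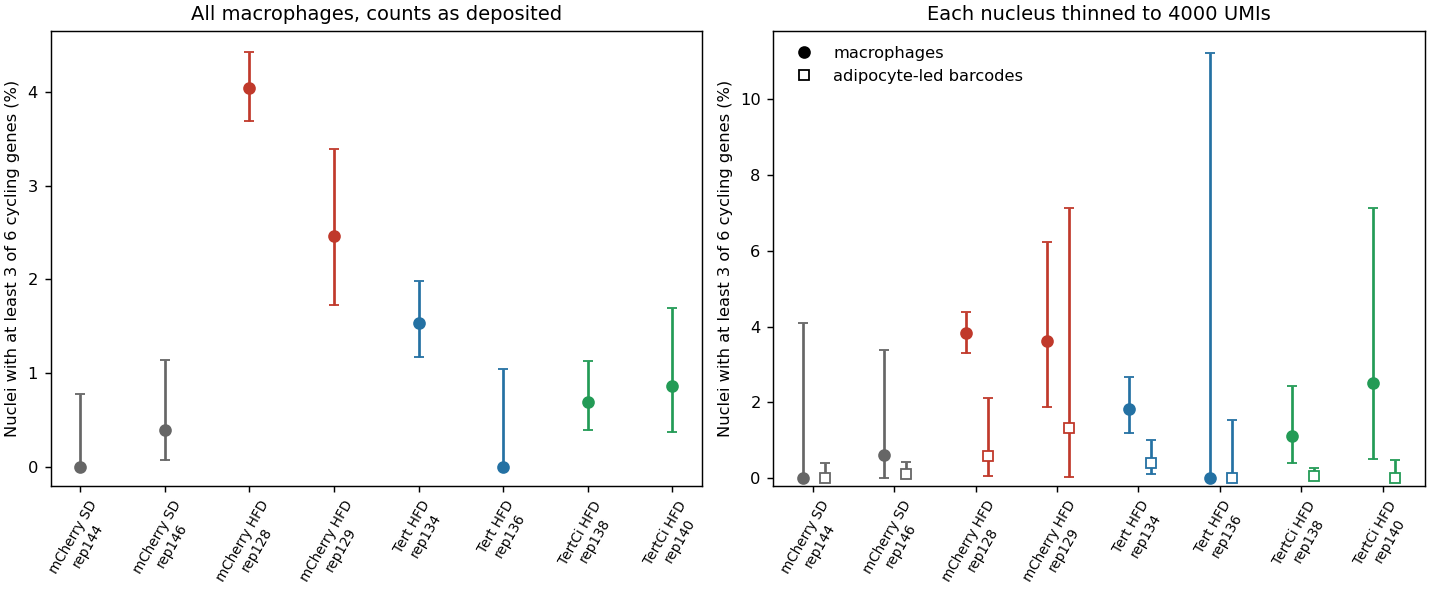
Share of nuclei with at least 3 of 6 cycling genes (percent, vertical axis) in each library, from all macrophages (left) and after thinning each nucleus to 4000 UMIs (right), where open squares are adipocyte-led barcodes. Bars are exact 95% intervals for counting error. The mCherry high-fat libraries lie highest on the left at 4.04% and 2.46%, and on the right the interval of rep136, from 31 nuclei, reaches 11.2%.

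Within the proliferating nuclei, Top2a (the topoisomerase that untangles copied DNA) and Mki67 (the nuclear antigen Ki-67) were the genes most often detected in rep128, in 80.1% and 74.6% of nuclei. Hells, a chromatin remodeller, was detected in 68.1%, Dtl, which directs destruction of licensing factors, in 67.5%, the kinetochore motor Cenpe in 52.0% and Cenpf in 28.8%. These 6 genes chose the nuclei, so their levels are a description. Over all 21235 macrophages, 18022 had none of the 6, 2157 had 1, 483 had 2, 312 had 3, 159 had 4, 74 had 5 and 28 had all 6. At the threshold, the summed level of 217 other cell-cycle genes was 13664 CPM (UMIs of the genes scaled to the summed UMIs of the same nuclei) in nuclei of rep128 with exactly 3 genes, 8978 in those with exactly 2 and 4556 in those with none. The same order held in rep134 (21852, 13856 and 4574 CPM) and rep138 (19636, 13572 and 5052 CPM).

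To describe the state of these nuclei, UMIs were summed per library over proliferating and over other macrophages and compared within each library by edgeR's quasi-likelihood test. The fit used the 4 libraries with at least 10 proliferating nuclei (rep128, rep129, rep134 and rep138), all from mice on high-fat diet. A gene is called higher or lower when its p, adjusted over all genes tested by Benjamini-Hochberg, was under 0.05. Of 14128 genes tested, 930 were higher (6.58%) and 719 lower (5.09%), together 11.7%, and the median log2 fold change was −0.05. Without rep128, 959 of 12068 were called, 568 higher (4.71%) and 391 lower (3.24%). Deeper nuclei detect more marker genes, so the comparison was repeated against other macrophages matched in UMIs, which called 893 genes of 7722 tested, 6.82% higher and 4.74% lower. Of 1637 genes called outside the rule, 1325 could be tested there and 806 kept their call with the same sign.

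DNA replication genes were the first group. Of the 18 licensing and helicase genes, 17 were higher and none lower, with a median log2 fold change of 2.03. Mcm6 stood at 87.0, 44.4, 60.2 and 130 CPM in proliferating nuclei of rep128, rep129, rep134 and rep138, against 20.98, 18.2, 17.3 and 11.6 in the other macrophages. The 2 states did not overlap, and its log2 fold change was 1.95 ± 0.21 (SE; edgeR adjusted p = 1.06e-11). Of 23 polymerase and fork genes, 20 were higher and none lower (median 1.87). Pola1 stood at 710, 724, 1139 and 1216 CPM against 143.8, 163, 182 and 175, again without overlap (log2 fold change 2.34). Prim2, a subunit of the primase that starts each new strand, had a log2 fold change of 1.96. Of 8 nucleotide supply genes, 7 were higher (median 2.73), among them Tyms, which makes thymidylate, at 81.8, 41.0, 75.2 and 184 CPM against 9.47, 12.6, 9.64 and 7.32. Rrm1, the large subunit of ribonucleotide reductase, followed with a log2 fold change of 2.77 and the thymidine kinase Tk1 with 2.69.

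Genes that repair broken forks and rebuild chromatin behind them were also higher. Of 24 recombination repair genes tested out of 25, 23 were higher and none lower (median 3.16). Rad51b, a paralogue of the recombinase that pairs broken DNA with its copy, stood at 923, 928, 1331 and 1683 CPM against 151, 198, 246 and 232. Brip1, a helicase of the Fanconi pathway, had a log2 fold change of 3.96 and Mms22l, which loads recombinase at stalled forks, 2.47. Of 14 chromatin assembly genes, 13 were higher (median 2.29). Ezh2, the methyltransferase of Polycomb repressive complex 2, stood at 267, 249, 325 and 380 CPM against 43.6, 56.02, 43.8 and 42.2. Every one of these levels in proliferating nuclei exceeded every level in other macrophages.

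The spindle and centromere lists had the highest medians of the cell-cycle lists. All 30 tested of 34 spindle and cytokinesis genes were higher (median log2 fold change 3.90). Diaph3, a formin of the actin cytoskeleton, stood at 527, 567, 881 and 1096 CPM against 59.9, 77.7, 57.2 and 46.5. Kif15 stood at 196, 191, 256 and 238.8 CPM against 11.1, 15.3, 8.68 and 5.45. Of 36 centromere and checkpoint genes, 33 were higher and none lower (median 3.27), including Cenpp of the inner kinetochore (log2 fold change 3.67) and Knl1, the outer kinetochore scaffold (4.83). Of 16 condensin and cohesin genes, 15 were higher (median 2.21), and all 5 centriole duplication genes were higher (median 1.38), led by Stil at 4.18. Differences between lists were not tested.

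Of 33 cyclins, cyclin-dependent kinases (CDKs) and regulators tested out of 38, 28 were higher and 1 lower (median 2.04). The higher ones included the atypical repressor E2f7 (log2 fold change 4.91), E2f3 (0.78) and Lin54, the DNA-binding subunit of MuvB (1.66). The exception was Ccnd3, a D-type cyclin that acts before S phase. It stood at 297, 181, 348 and 380 CPM in proliferating nuclei and at 704, 373, 894 and 1728 in the others, a log2 fold change of −1.52 ± 0.16 (SE; edgeR adjusted p = 2.07e-12), lower in 4 of 4 libraries. Of the 217 cell-cycle genes outside the rule, 207 were tested, 191 were higher and 1 lower. Without rep128, 173 of 197 were higher and 1 lower, and against matched macrophages 149 of 157 and 1. The gate selected nuclei on genes of the same programme, so the direction of these lists is not independent evidence of division.

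**Figure D2:**
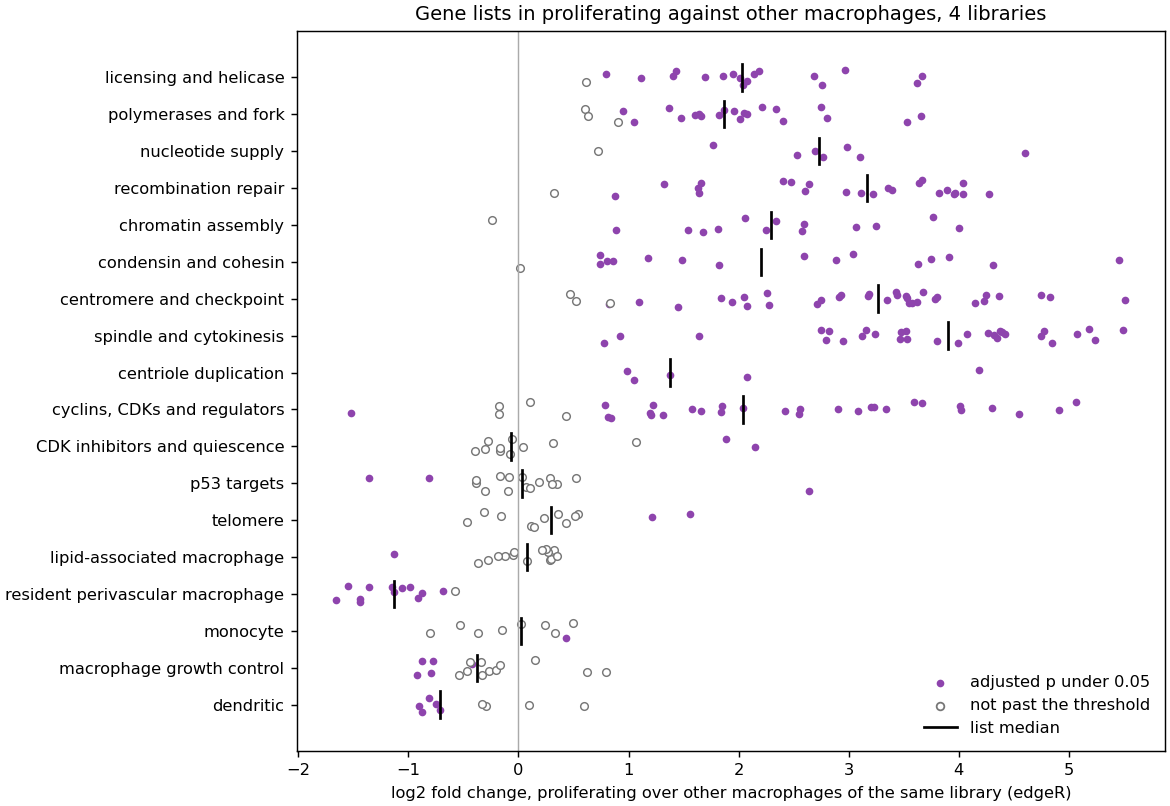
Each point is 1 gene of the list named on the vertical axis, placed by its log2 fold change between proliferating and other macrophages of the same library (horizontal axis, 4 libraries). Filled points passed an adjusted p of 0.05, open points did not, and black bars are list medians. The spindle list has the highest median at 3.90 and the perivascular list the lowest at −1.13.

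By the rule of naming the 12 called genes of largest change in each direction, Neil3 came first. It encodes a DNA glycosylase that unhooks crosslinks at replication forks. It stood at 182, 198, 312 and 380 CPM in proliferating nuclei against 4.43, 11.5, 4.38 and 2.44, a log2 fold change of 5.47 ± 0.21 (SE; edgeR adjusted p = 1.43e-33). The others were Kif4 (5.24), Ckap2l (5.07), E2f7, the long non-coding RNA Lockd (4.83), Knl1, Cdca2 (4.78), Kif11 (4.75), Bub1 (4.74), Melk (4.54), Kntc1 (4.51) and Nusap1 (4.38). Kif4 and Kif11 are mitotic kinesins, Bub1 is a spindle checkpoint kinase, Kntc1 acts at kinetochores and Nusap1 binds spindle microtubules. Lockd is transcribed beside the CDK inhibitor gene Cdkn1b. Cdkn1b itself, which encodes p27, had a log2 fold change of −0.39 that did not pass the test.

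The brakes on division and p53 targets are read against 6.58% of all genes higher and 5.09% lower. Among 12 tested of 15 CDK inhibitor and quiescence genes, 2 were higher and none lower: Rbl1, the pocket protein p107 (log2 fold change 2.15), and Cdkn2c, which inhibits CDK4 and CDK6 (1.88). Both are themselves transcribed in cycling cells. Among 17 p53 target genes, 1 was higher and 2 lower. Gtse1, a mitotic protein that restrains p53, had a log2 fold change of 2.64, while Trp53inp1 (−0.81) and the death gene Bbc3 (−1.36) were lower; the calls of Trp53inp1 and Bbc3 were lost without rep128 (edgeR adjusted p = 0.252 and 0.359). Among 12 tested telomere genes, 2 were higher, the helicase Rtel1 (1.56) and Ctc1 of the complex that fills in telomere ends (1.21). Without rep128 these were not called (edgeR adjusted p = 0.051 and 0.0687).

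The genes of the engineered locus were hardly seen. Cdkn1a gave 61, 8, 7, 1 and 2 UMIs in the proliferating nuclei of rep128, rep129, rep134, rep138 and rep140, or 13.6, 27.3, 15.05, 10.9 and 44.4 CPM. Its log2 fold change of 0.32 against other macrophages did not pass (edgeR adjusted p = 0.648). Tert gave 6 UMIs in the proliferating nuclei of rep128 and 0 in those of the other libraries, the Tert and TertCi mice included. The mCherry feature gave 0 UMIs in all proliferating nuclei and 3 UMIs in the other macrophages of rep128. At this depth these counts do not check the genotype labels.

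Genes of resident perivascular macrophages, which line vessels and take up debris, were lower. Of 13 such genes, 12 were lower and none higher (median −1.13), where 5.09% of all genes were lower. Without rep128, 11 of 13 were lower, against 3.24% of all genes, and 9 of 12 tested against macrophages matched in UMIs, against 4.74%. F13a1, the A chain of coagulation factor XIII, stood at 656, 1058, 1631 and 2660 CPM in proliferating nuclei against 1379, 1679, 4389 and 4885 in the others (log2 fold change −1.15). It was lower in each of the 4 libraries, while the ranges of the 2 states overlapped between libraries. Selenop, a secreted selenium carrier, stood at 343, 225, 187 and 141 CPM against 731, 561, 758 and 771, without overlap (log2 fold change −1.65 ± 0.16 SE; edgeR adjusted p = 2.54e-13). The haemoglobin scavenger receptor Cd163 (−1.44), the hyaluronan receptor Lyve1 (−1.54) and the transcription factor Maf, which restrains macrophage self-renewal (−0.99), were lower too, whereas Pf4 (−0.57) was not called. Summed over the list, levels were 1693, 2093, 2532 and 3430 CPM in proliferating nuclei against 3298, 3402, 7022 and 7659. The rule's own macrophage genes were also lower, 6 of 7, with Mertk at 365, 321, 217 and 174 CPM against 730, 612, 622 and 855, a description since the rule used them.

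Genes of lipid-associated macrophages, the foamy Trem2 cells around dying adipocytes in obese fat, showed no such difference. Of 15 genes, none were higher and 1 was lower, the lipoprotein gene Apoe (log2 fold change −1.13), and the list median was 0.08. Cd36, a fatty acid uptake receptor, stood at 2921, 2635, 2257 and 1986 CPM against 2280, 2180, 1564 and 1545. It lay above the other macrophages of the same library in 4 of 4 libraries, yet its log2 fold change of 0.25 ± 0.14 (SE) did not pass the test (edgeR adjusted p = 0.305). Gpnmb (0.32), Lpl (0.35) and Lgals3 (0.27) did not pass either. Without TMM scaling 4 of 15 were higher and 1 lower, where 8.12% of all genes were higher and 4.42% lower. Against matched macrophages, 1 of 13 was higher, Lpl at 0.55, and 1 lower, near the 6.82% and 4.74% of all genes there. The summed list stood at 9976, 8736, 5862 and 4168 CPM in proliferating nuclei against 9100, 8096, 4150 and 3406, and at 1375 against 2682 in rep140, whose value rests on 8 nuclei.

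**Figure D3:**
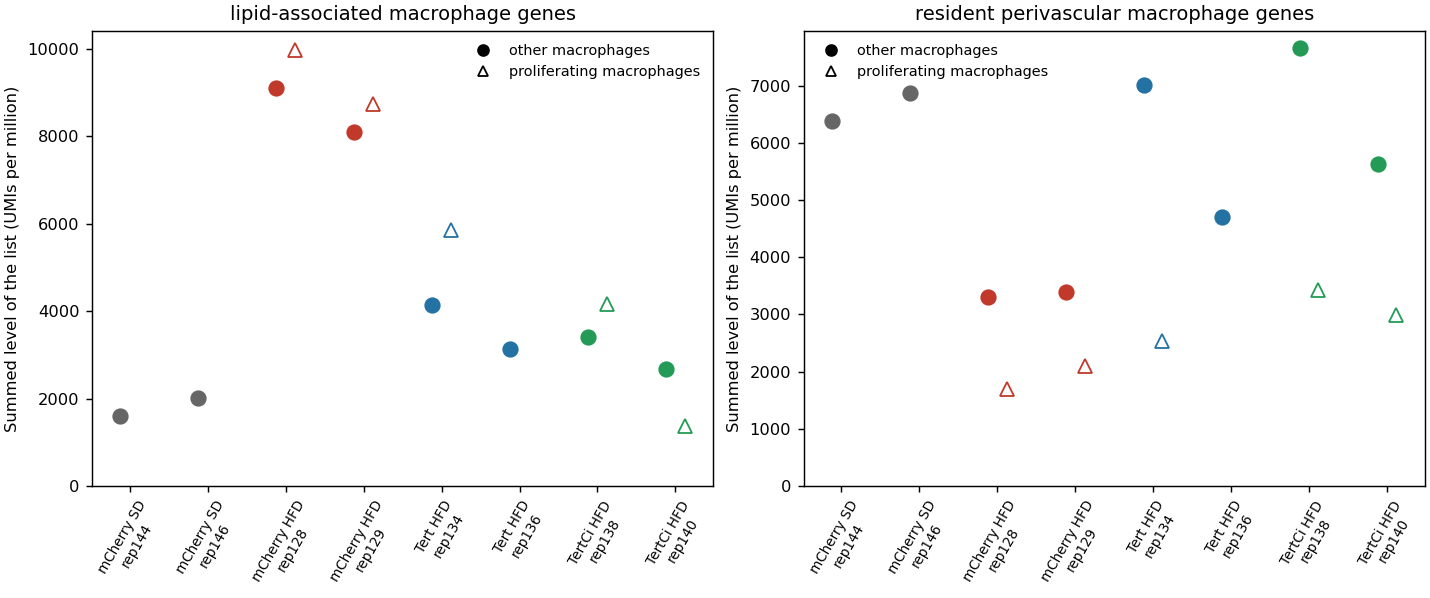
Summed level of the 15 lipid-associated (left) and 13 perivascular (right) genes in CPM (vertical axis) by library. Filled circles are other macrophages and open triangles proliferating macrophages of libraries with at least 5 of them. The triangles of the perivascular list lie below the circles in all 5 libraries, for example 1693 against 3298 in rep128.

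Among 16 genes that control macrophage growth, 5 were lower and none higher, where 5.09% of all genes were lower and 6.58% higher. Retnla, an interleukin-4 response gene, had a log2 fold change of −0.88, the receptor subunits Il4ra −0.78 and Il13ra1 −0.92, and Igf1r −0.42. The calls of Il4ra and Igf1r were lost without rep128 (edgeR adjusted p = 0.78 and 0.14). Of 9 tested monocyte genes 1 was called, near the 11.7% of all genes. It was Ccr2, the receptor that brings monocytes into tissue, at 135, 113, 170 and 261 CPM against 104, 82.2, 114 and 138.4 (log2 fold change 0.43; edgeR adjusted p = 0.0372). It was above the other macrophages in 4 of 4 libraries, and without rep128 it was not called (edgeR adjusted p = 0.13).

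Of 9 tested genes of dendritic cells and antigen presentation, 5 were lower and none higher, where 5.09% of all genes were lower. Cd74, the invariant chain, stood at 276, 235, 155 and 174 CPM against 424, 254, 424 and 285 (log2 fold change −0.81). H2-Aa (−0.71), H2-Ab1 (−0.75), Clec10a (−0.91) and Ciita, the master activator of MHC class II (−0.88), completed the group. Against macrophages matched in UMIs, 1 of 6 was lower, Ciita (−0.52), where 4.74% of all genes were lower, and Cd74 (−0.47; edgeR adjusted p = 0.139) and H2-Aa (−0.32; adjusted p = 0.221) were not called. 

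Other genes of largest decrease were P3h2, a collagen prolyl hydroxylase (log2 fold change −1.81), ENSMUSG00000120498 (−1.72), the NAD-consuming enzyme Cd38 (−1.66), the urea transporter Slc14a1 (−1.65), Ms4a4a (−1.60), Plekhg5 (−1.47), Samd4 (−1.42) and Nrg2 (−1.39), beside Selenop, Ccnd3 and Cd163. P3h2 stood at 93.4, 58.0, 159 and 32.6 CPM against 197, 150, 653 and 725. Each of these genes was lower in 4 of 4 libraries, as the rule for naming them required.

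**Figure D4:**
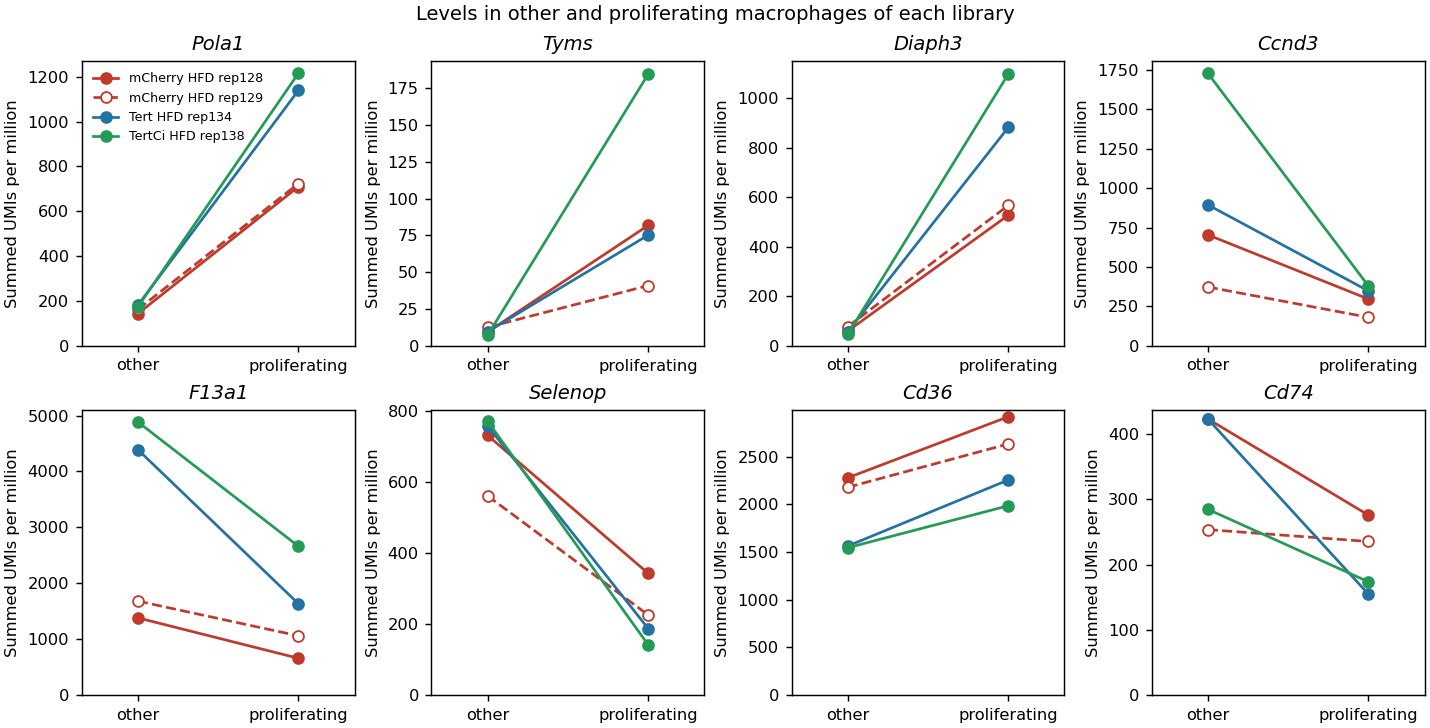
Level of 8 genes in CPM (vertical axes, each from 0) in other and proliferating macrophages, with 1 line per library. Pola1, Tyms and Diaph3 rise along every line, and Ccnd3, F13a1 and Selenop fall along every line. Cd36 rises along every line without passing the test, and Cd74 falls from 254 to 235 CPM in rep129.

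Markers of cell types outside the macrophage and dendritic lineages are read against 11.7% of all genes called. Of 9 adipocyte genes 1 was higher, Acaca, the first enzyme of fatty acid synthesis (log2 fold change 0.60), and the summed list stood at 1115, 1284, 2302 and 1986 CPM in proliferating nuclei against 1109, 1233, 1920 and 2748. No adipocyte gene was at 0 in the proliferating nuclei of rep128, rep129 and rep134, and 1 of 9 was in rep138. No gene of the progenitor, endothelial, T and NK, mast, pericyte or peritoneal macrophage lists was called. Against macrophages matched in UMIs, 3 of 8 progenitor genes were lower, where 4.74% of all genes were lower. The 2 B lineage genes tested, Bank1 (−0.69) and Ighm (−1.05), were lower, and Ighm lost its call without rep128 (edgeR adjusted p = 0.231). Of 3 mesothelial genes 1 was higher, Muc16 (1.23), with 82 of its UMIs in rep128 and none in rep138. Among nuclei with no UMI of the 9 genes of other lineages used by the rule, the log2 fold change of Muc16 was −0.20. There 655 of 12529 genes were called in all (3.64% higher and 1.59% lower), 172 of 209 cell-cycle genes were higher and 1 lower, and 7 of 13 perivascular genes were lower. Nuclei were sorted to remove clumps, and doublet scores moved with the gate in some libraries. The highest scores fell on 23.0% of proliferating against 16.2% of other macrophages in rep128, on 4 of 36 (11.1%) against 3.64% in rep129, on 10.3% against 7.49% in rep134, on 6.25% against 5.91% in rep138 and on 0% against 3.93% in rep140. With those nuclei removed, the shares were 3.72% in rep128 and 2.27% in rep129.

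S-phase and mitotic transcripts were set against each other within each library. The 49 licensing, polymerase and nucleotide genes gave 34.2% (exact interval 33.7 to 34.6%) of the summed UMIs of these and the 86 condensin, centromere and spindle genes in rep128. The value was 29.7% (28.0 to 31.5%) in rep129, 33.3% (32.1 to 34.5%) in rep134, 36.8% (34.2 to 39.5%) in rep138 and 30.2% (26.7 to 33.9%) in rep140. These intervals treat each UMI as an independent draw and leave out the spread between nuclei and between mice. The 2 mCherry high-fat mice spanned 29.7 to 34.2%, and the Tert mouse lay within that range. In the other macrophages of the same libraries the value was 36.9, 34.6, 35.4, 33.3 and 32.6% in the same order. It was lower in proliferating nuclei in 4 of the 5 libraries, with overlapping intervals in rep140, and higher in rep138. The gate holds more mitotic genes (Mki67, Top2a, Cenpe, Cenpf) than S-phase genes (Dtl, Hells), so this balance is not independent of the gate. The values are a description with no test. The standard-diet value of 39.0% rests on 3 nuclei.

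Between genotypes, proliferating macrophages of the Tert mouse (rep134) were compared with those of both mCherry high-fat mice. The Tert and TertCi arms had 1 library each with at least 10 members, so their spread is assumed to equal that of the mCherry pair. Of 7644 genes tested, 86 were called (1.13%), 40 higher (0.523%) and 46 lower (0.602%), and none of the 177 cell-cycle genes tested was among them. Ghr, the growth hormone receptor, stood at 99.7 and 116 CPM in rep128 and rep129, 1042 in rep134 and 662 in the TertCi rep138 (Tert against mCherry, log2 fold change 3.31). In the other macrophages it stood at 113 and 237 CPM against 773 and 1404 in the same mice, so the difference was present there too. Prr16 stood at 3.34 and 3.41 CPM against 161 (log2 fold change 5.53), Mageb18 at 10.0 and 10.2 against 219 (4.42), the thyrotropin receptor Tshr at 8.70 and 3.41 against 127 (3.96), and Car3, a carbonic anhydrase abundant in adipocytes, at 12.9 and 6.83 against 157 (3.66). Slc1a3 (4.90), Ctcflos (4.27), Pdzd2 (3.62) and Npr3 (3.42) were also higher and ENSMUSG00000097265 (−3.50) lower.

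Among the listed genes, Gpnmb was lower in the Tert mouse, at 434 CPM against 1277 and 1130 (log2 fold change −1.50), as was Apoe at 49.4 against 207 and 174 CPM. The summed lipid-associated list, which holds both genes, was lower in the other macrophages of this mouse too, at 4150 CPM against 9100 and 8096. Mecom, of the endothelial list, was higher in the Tert proliferating nuclei (2.63). The summed adipocyte list stood at 1115 and 1284 CPM in the mCherry mice, 2302 in the Tert mouse and 1986 in the TertCi mouse. Ghr is a member of this list, and most of the rise lay in Ghr, at the levels given above. The part of adipocyte genes in these calls was not tested. For TertCi against mCherry 0 genes were called by edgeR, with 1250 at an unadjusted p under 0.05, and 64 by DESeq2. With libraries of at least 5 members, which adds rep140 to the TertCi arm, 4.14% of genes were called by edgeR. For Tert against TertCi 0 were called by either tool, with 604 and 135 at an unadjusted p under 0.05. Whether the step from other to proliferating macrophages differed between genotypes was tested by an interaction term over 17576 genes. It was called for 0.649% of genes in the Tert mouse (0.336% more positive and 0.313% more negative) and for 1.75% in the TertCi mouse (0.176% and 1.57%). The median difference over all genes was −1.18 in the TertCi mouse and −0.14 in the Tert mouse. Without TMM scaling the medians were −0.74 and −0.05, and the split turned in the TertCi mouse to 71 more positive and 45 more negative of 116 genes called, and moved in the Tert mouse to 71 and 34. Of the 217 cell-cycle genes outside the rule, 8 were more positive and none more negative in the Tert mouse, and 10 and 1 in the TertCi mouse. Such a difference holds the levels of both states. Ncapg stood at 94.6 CPM in Tert proliferating nuclei against 47.9 and 44.4 in the mCherry ones. In the other macrophages Ncapg stood at 1.91 against 4.64 and 7.31 CPM. Both comparisons with mCherry share the mCherry libraries. The standard-diet group had 3 proliferating nuclei, too few for a test.

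Over all macrophages, without the gate, levels of the 6 cycling genes can be compared between all 8 mice. Mki67 stood at 0.729 and 2.02 CPM in the standard-diet mCherry mice, 22.8 and 27.9 in the high-fat mCherry mice, 11.9 and 3.93 in the Tert mice and 8.78 and 7.01 in the TertCi mice. Both standard-diet mice lay below every high-fat mouse, and both mCherry high-fat mice lay above all others. The values of rep144, rep146 and rep136 rest on a few UMIs of Mki67 each, so the order among these mice is weak. The macrophages of rep144 and rep136 held 1372242 and 763468 UMIs in all, and the 6 genes together gave 19 UMIs in rep144. With diet, Mki67 was higher by a log2 fold change of 3.85 ± 0.50 (SE, edgeR) and Top2a by 3.08. The 6 genes chose the proliferating nuclei and this contrast was added after seeing the data, so these values are a description with no test. The summed level of the 217 cell-cycle genes outside the rule did not follow the order of Mki67. It stood at 3945 and 4100 CPM in the standard-diet mCherry mice, 5905 and 5464 in the high-fat mCherry mice, 5356 and 3924 in the Tert mice and 5472 and 4982 in the TertCi mice. Here rep136 of Tert lay below both standard-diet mice, and rep138 of TertCi lay between the mCherry high-fat mice. The 49 S-phase genes among them stood at 626 and 670 CPM in standard-diet and 1087 and 998 in high-fat mCherry mice. They stood at 913 and 706 CPM in Tert and 733 and 784 in TertCi mice. The 86 condensin, centromere and spindle genes stood at 1232, 1361, 1919, 1963, 1690, 1433, 1451 and 1639 CPM in the same order. In both sums the standard-diet mice lay lowest and the mCherry high-fat mice highest. Among nuclei with no UMI of the 9 genes of other lineages, the mCherry high-fat mice stayed highest in both sums, but rep146 did not stay low. There its S-phase sum was 719 CPM, above rep138 at 694. Its sum of condensin, centromere and spindle genes was 1528 CPM, above rep136 at 1427 and rep138 at 1391. Of 14742 genes tested, 34.9% were called in the diet comparison of mCherry mice over all macrophages (19.1% higher and 15.8% lower). Of 196 cell-cycle genes outside the rule, 90 were higher and 2 lower. Leaving out rep128 leaves 1 library in the mCherry high-fat group, so list calls without it are not given. How far these calls rest on rep128 is therefore not shown. Without TMM scaling the all-gene median moved from 0.06 to 0.24 and the split to 22.7% higher and 10.6% lower.

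In the same fit, Mki67 was lower by a log2 fold change of −1.22 in Tert mice and −1.45 in TertCi mice than in mCherry high-fat mice. This is a description, since the rule used Mki67. Of the 196 cell-cycle genes outside the rule, 16 were lower in Tert mice, where 18.3% of all genes were called (6.94% higher and 11.4% lower). Without rep128 the mCherry high-fat group has 1 library, so no list calls are given without it. In TertCi mice 49 of the 196 were lower and 2 higher, where 29.9% of all genes were called (12% higher and 17.9% lower). The limit on calls without rep128 holds for TertCi too. Without TMM scaling the all-gene median for TertCi moved from −0.08 to −0.28 and the split to 7.45% higher and 21.8% lower. Tert against TertCi gave 0 called genes by edgeR and by DESeq2, with 721 and 312 at an unadjusted p under 0.05.

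Other measures moved with these levels. Barcodes with under 100 UMIs, which hold free RNA, carried the 6 genes at 19.8 and 19.9 CPM in the standard-diet libraries, 93.2 and 97.0 in the mCherry high-fat libraries, 50.1 and 40.1 in the Tert and 27.8 and 33.6 in the TertCi libraries. The summed adipocyte list, Ghr included, in macrophages outside the gate stood at 4828, 3665, 1109, 1233, 1920, 3269, 2748 and 2184 CPM in rep144, rep146, rep128, rep129, rep134, rep136, rep138 and rep140. Their part in the result was not tested. A higher level over all macrophages can come from more cycling nuclei, more RNA in each or more free RNA, which cannot be told apart in summed counts.

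**Figure D5:**
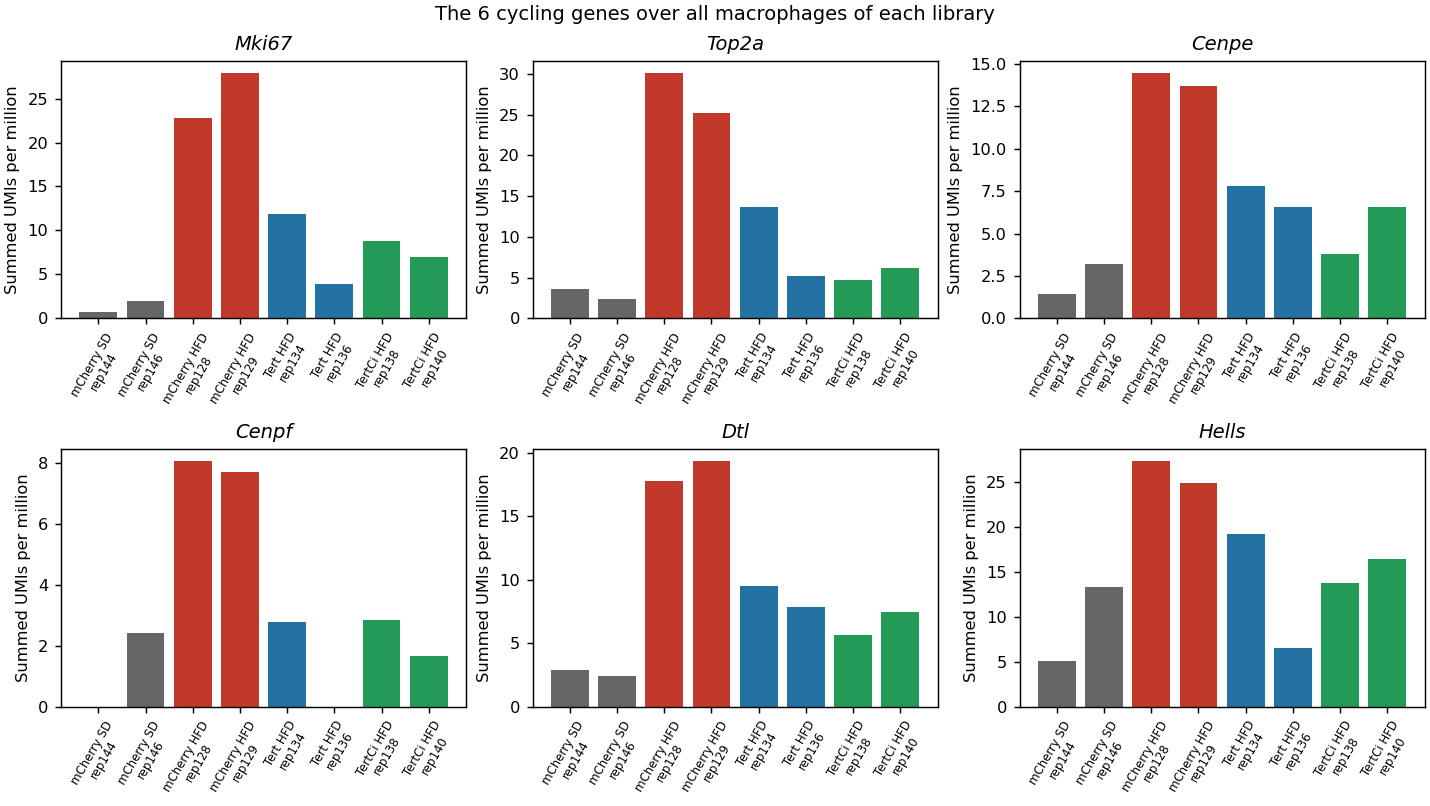
Level of the 6 cycling genes in CPM (vertical axes, each from 0) summed over all macrophages of each library, 1 bar per mouse. For Mki67 the mCherry high-fat mice reach 22.8 and 27.9 and the standard-diet mice 0.729 and 2.02. Cenpf is at 0 in rep144 and rep136.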

How the data were processed

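Nuclear RNA of visceral fat was measured in 8 libraries. Per the labels, the authors homogenised frozen tissue, sorted DAPI-stained nuclei and made 10x 3′ libraries. The deposited matrices hold raw UMI counts of 56749 features, mCherry included. Per the submitters' processing notes, reads were handled with bcl2fastq 2.20.0 and Cell Ranger 5.0.1 on mm39; the file headers name Cell Ranger 7.1.0.

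The rule was applied to all deposited barcodes. Counts were summed per library and state and tested with edgeR 4.0.16 (TMM, filterByExpr, library as a term), with DESeq2 1.42.0 as an alternative. The edgeR fits, but not DESeq2, were also run on simulated counts. Those counts had a shared expression profile, a fixed spread and no differences between libraries other than size, unlike these data. Shares were compared by exact permutation of log odds with 0.5 added to each count. Matched macrophages were 3 per member within bins of 0.25 log2 UMIs. The doublet caller (scanpy 1.11.5) marked none in 7 of 8 libraries and so did not work; as an alternative, the highest scores were removed, 0.8% per 1000 barcodes.

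Genes named are the 12 of largest change each way among called genes with the same sign in all 4 libraries and at least 50 CPM, the 10 of largest change per genotype comparison without overlap between libraries, and the list members with most UMIs; members of a list with few calls were named after their values were seen. The members and lists were chosen with earlier results of these data known. The contrasts over all macrophages, thinning with at least 2 of 6 genes or without rep136, 0.1 added to each count, and libraries with at least 5 members were added after seeing the data. Labels give 1 mouse per library. For shares and for all macrophages, p-values measure the spread between these mice. For proliferating against other macrophages they measure the spread of the within-library differences. In the genotype fits of proliferating nuclei and in the interaction, only the mCherry high-fat arm had 2 libraries, and the spread comes from that pair. Promoters were matched by symbol to a RefSeq table of another build than the authors'. Some genes that the naming rule selects are not reported here.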

Additional observations from a re-analysis of the deposited data

Results flagged for a closer look

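Whether the difference between proliferating and other macrophages itself differed between genotypes was tested by an interaction term in edgeR over 17576 genes. It was called for 114 genes between the Tert mouse and the mCherry high-fat mice (0.649%), 59 of them with a more positive difference, and for 307 genes between the TertCi mouse and the mCherry mice (1.75%), 31 of them more positive. Of these, 97 and 249 had at least 3 UMIs in each sum, and 27 of the 276 more negative TertCi genes had no UMI in its proliferating nuclei. The median difference over all genes was −0.14 for Tert and −1.18 for TertCi. Without TMM scaling the medians were −0.05 and −0.74, and 71 of 105 and 71 of 116 called genes were more positive, so the direction of the TertCi split depends on the scaling. Each Tert or TertCi arm was 1 library. Among genes with at least 3 UMIs in each sum and no overlap between groups, the difference of log2 fold changes for Tert was 2.50 for the acute-phase protein gene Hp, −2.47 for Irf4, a transcription factor of interleukin-4 responses (edgeR adjusted p = 0.0555 without TMM), and −2.36 for Rgs6. As CPM ratios, Rgs6 differed by −1.44 from rep128 alone and by −4.26 from rep129 alone, with no test, since each arm is then 1 library. For TertCi it was −3.82 for P3h2, 3.28 for Kntc1, which acts at kinetochores, and 3.17 for the kinesin gene Kif22. P3h2 rests on 3 UMIs in the TertCi proliferating nuclei, and Kntc1 and Kif22 rest on 7 and 9 UMIs in its other macrophages. Kntc1 stood at 217 CPM in TertCi proliferating nuclei against 104 and 81.9 in mCherry ones. In the other macrophages Kntc1 stood at 1.00 against 5.58 and 7.97 CPM, so both states entered the difference. The other macrophages include nuclei with 1 or 2 of the 6 genes, 1436 and 350 of 10734 in rep128 and 98 and 20 of 2284 in rep138. With libraries of at least 5 members, 29 and 170 genes were called.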

How the results depend on the processing

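No paired analysis was possible because the groups share no replicate numbers; the library served as the block within which the states were compared, and without this replicate block 473 genes were called in place of 1649. Further counts for proliferating against other macrophages that moved were 1065 (DESeq2), 975 (at least 4 of 6 genes), 655 (no UMI of other lineages) and 893 (matched in UMIs), and 959 to 1738 with 1 library left out; without rep128 it was 959. The other settings gave 1343 to 2120, the highest without the highest doublet scores. For Tert against mCherry in members, 86 genes became 55 to 632; as shares of the genes tested, 1.13% became 1.75% (no TMM), 2.52% (no filter on low counts), 1.33% (DESeq2), 4.28% (at least 4 of 6), 3.83% (own UMI threshold of each library), 1.98% (highest doublet scores removed), 3.55% (libraries with at least 5 members) and 2.83% without rep138 of TertCi. For TertCi against mCherry, 0 genes became 14 to 314, or 0.183% (no TMM), 1.25% (no filter), 2.88% (DESeq2), 1.13% (own threshold), 1.27% (doublet scores), 4.14% (at least 5 members) and 0.395% without rep134 of Tert. For Tert against TertCi, 0 became 59 genes (0.235%) without the filter and 3 (0.0424%) with at least 5 members. The interaction counts became 40 (at least 4 of 6), 47 (doublet scores) and 29 (at least 5 members) for Tert, and 116 (no TMM), 162 and 170 for TertCi. Over all macrophages the diet count was 2857 with no UMI of other lineages, those of Tert and TertCi against mCherry were 1558 and 2527 by DESeq2, and Tert against TertCi gave 74 without the filter. With 1 library left out these were 2423 to 5597, 648 to 2840, 1584 to 4937 and 0; the lowest of the first 3 came without rep128. The diet count was 3121 without rep144, the Tert count 1676, 1732 and 1773 without rep129, rep134 and rep136, and the TertCi count 1681 and 1947 without rep138 and rep140. The cause was not tested.

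For the share of proliferating macrophages, the 4-group F was 7.07 (exact permutation p = 0.0381) with at least 4 of 6 genes, 8.11 (p = 0.0286) with at least 2 and 7.31 (p = 0.0476) at 4000 UMIs, and 1.10 to 8.05 with 1 library left out. It did not pass at 2000 UMIs (4.17; exact permutation p = 0.133), at 4000 UMIs with at least 2 of 6 (6.65; p = 0.0762), at 2000 UMIs with at least 2 of 6 (2.97; p = 0.171), with 0.1 in place of 0.5 added to each count at any depth (1.55 to 2.91), at 2000 and 4000 UMIs without rep136 (3.29 and 5.66), at the own threshold (1.31; p = 0.343), with no UMI of other lineages (1.18; p = 0.438) or without the highest doublet scores (2.32; p = 0.229). The difference between the 6 high-fat and 2 standard-diet libraries was 2.53 (exact permutation p = 0.0357) with at least 2 of 6 and 1.70 (p = 0.0357) at 4000 UMIs, and 1.24 to 3.36 with 1 library left out, passing without Tert rep136 (2.88; exact permutation p = 0.0476) and at 4000 UMIs without rep136 (1.82; p = 0.0476), but not there with 0.1 added (2.64; p = 0.0714). It was 1.27 to 3.14 and did not pass under the other settings. The difference of mCherry from Tert and TertCi was 1.69 to 2.84 with 1 library left out (1.04 and 1.27 at 4000 and 2000 UMIs without rep136) and 1.11 to 3.00 under the other settings, where no p under 0.0667 is possible. The S-phase share was 11.5% (rep146), 23.9% (rep129) and 33.1% (rep138) with no UMI of other lineages and 33.5% (rep128) without the highest doublet scores. The mean summed level of cell-cycle genes was 4022 CPM in standard-diet macrophages, and 3900 and 4289 at the own threshold and with no UMI of other lineages. Muc16 turned to −0.20 with no UMI of other lineages. Of 90 named genes, 82 kept their direction and side of the threshold with DESeq2 and 63 without the replicate block. The shallow libraries, with 350 and 474 macrophages, limit what shares below 0.857% (3 of 350; exact upper limit 1.05%) can show.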
